A study of Mus musculus with 4 samples.

Results

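The 9 genes described here encode the coactivators and DNA-binding partners at the end of the Hippo pathway and a few of their best known targets: *Yap1* and *Wwtr1* (the gene of the protein TAZ), *Tead1*, *Tead2*, *Tead3* and *Tead4*, and *Ctgf*, *Cyr61* and *Ankrd1*. All Runx2 peaks that shared at least 1 bp with the gene body of a member, widened by 20 kb on each side, were taken. This gave 135 of the 126383 peaks of the series, 29 of 25457 at day 0, 66 of 60596 at day 9 and 40 of 40330 at day 28, and 71 of the 67703 regions formed when overlapping peaks of the 3 time points were merged.

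In the Hippo pathway a kinase cascade that responds to cell contact and mechanical tension holds the coactivators YAP and TAZ in the cytoplasm. When the kinases are inactive, YAP and TAZ enter the nucleus, where they have no DNA-binding domain of their own and reach genes mainly through the TEAD proteins, which recognise a GGAATG core. Runx proteins, which recognise a TGTGGT core, carry a short proline-rich motif that the WW domains of YAP and TAZ can bind, and TAZ is known as a coactivator of Runx2 in osteoblast differentiation.

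Chromatin of MC3T3-E1 subclone 4, a clonal preosteoblast line from mouse calvaria labelled as C57BL/6, was immunoprecipitated with the Runx2 antibody M70 at day 0 (proliferating preosteoblasts), day 9 (matrix-depositing osteoblasts) and day 28 (mineralizing osteoblasts). No group carried a transgene or a deletion, differentiation was induced with ascorbic acid and beta-glycerophosphate, and input DNA of day 9 cells served all time points. The 2 biological replicates of each time point were pooled before peaks were called, so a time point has a single list without replicate error, and differences between time points were not tested. The score of a peak is 10 times the negative log10 of its p-value and depends on read depth, which the lists do not hold, so peaks were ranked only within their own list, by score percentile, the share of the list's peaks with a lower score. Peaks with the tied score of 3100, of which the day 0, 9 and 28 lists hold 192, 2699 and 1468, cannot be ordered. Shares carry 95% Clopper-Pearson (exact binomial) bounds, for counting error alone. These treat peaks and regions as independent, although many lie at the same gene, so the bounds may be too narrow. Coordinates are those of mm9 (NCBIM37), and distances run along the gene strand from the first base of the gene in GENCODE M1.

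A Runx2 peak lay over an annotated start of 9 of the 9 genes at day 0, 8 at day 9 and 8 at day 28, counting any overlap with 1000 bp upstream to 150 bp downstream of a start. Over all protein-coding genes this was so for 42.7%, 51.6% and 50.1%. At 8 genes an annotated start was covered at each of the 3 time points (41.5% of all genes), and at *Ankrd1* at day 0 alone (0.443% of all genes). The DNA near the gene start is shown for the genes that hold the TEAD core there, from the NCBIM37 genome, 5′ to 3′ on the gene strand, with GGAATG or its reverse complement in capitals.
Yap1 (chr9:8004705-8004764, minus strand): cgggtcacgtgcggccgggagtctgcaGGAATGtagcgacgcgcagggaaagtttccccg
Wwtr1 (chr3:57379936-57379995, minus strand): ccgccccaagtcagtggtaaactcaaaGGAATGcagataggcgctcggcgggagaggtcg
Tead1 (chr7:119822851-119822880, plus strand): tcatttCATTCCtgtcctCATTCCgcacat
Tead3 (chr17:28487646-28487675, minus strand): ccgggctCATTCCgtaCATTCCggccatcc
Tead4 (chr6:128250473-128250502, minus strand): tCATTCCagcgccCATTCCgtgCATTCCtg
Ctgf (chr10:24315133-24315247, plus strand): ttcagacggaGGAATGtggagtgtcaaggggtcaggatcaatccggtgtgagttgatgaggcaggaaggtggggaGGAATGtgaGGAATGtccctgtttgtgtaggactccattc
Cyr61 (chr3:145313020-145313079, minus strand): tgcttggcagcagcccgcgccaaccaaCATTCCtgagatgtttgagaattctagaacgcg

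The stretches of *Yap1*, *Wwtr1*, *Ctgf* and *Cyr61* lie upstream of the start, and those of the *Tead* genes lie in an exon, in untranslated sequence of at least 1 transcript. GGAATG, searched on both strands, was found within 500 bp of the start of 8 of the 9 genes, against 38.6% of all protein-coding genes. *Tead2* had none. At 4 genes, *Tead1*, *Tead3*, *Tead4* and *Ctgf*, copies on 1 strand began at most 12 bp apart, an arrangement present at 54 of 22367 genes (0.241%). The distance of 12 bp was chosen after these sequences were seen. *Tead4* held 3 copies in 27 bases, beginning 340, 352 and 361 bp downstream of the start. *Tead1* held copies beginning at 25 and 37 bp and *Tead3* at 82 and 91 bp. In *Ctgf* they began at -40 and -31 bp, with another at -105 bp. The Runx core TGTGGT, also searched on both strands, was found within 500 bp of the start of 2 of the 9 genes, *Tead2* and *Ankrd1*, against 42.1% of all genes. A match is a description of the letters and not a mapped binding site.

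**Figure D1:**
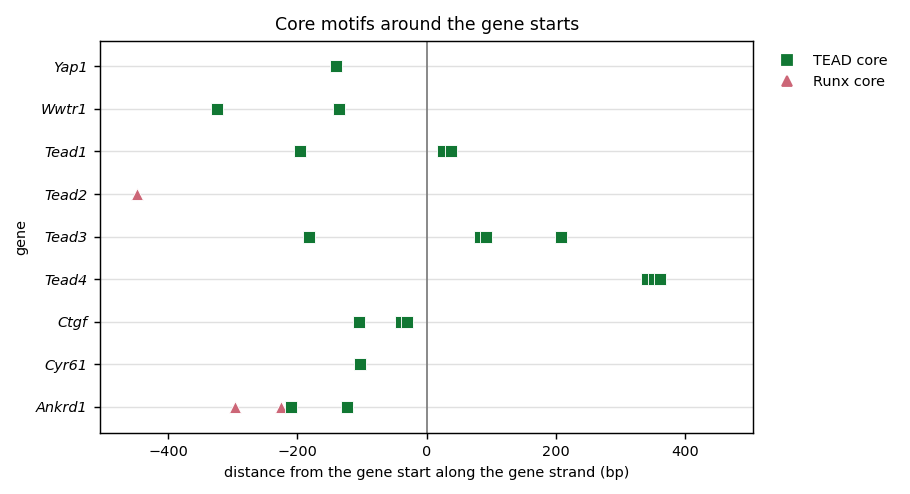
Core motifs within 500 bp of the 9 gene starts. Each row is a gene, the horizontal axis is the distance from the gene start in bp, green squares are TEAD cores (GGAATG, either strand) and red triangles Runx cores (TGTGGT, either strand). TEAD cores lie near 8 of the 9 starts, and Runx cores near those of *Tead2* and *Ankrd1*.

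*Ankrd1*, which encodes a stress-responsive ankyrin repeat protein of muscle and is a widely used reporter of YAP and TAZ activity, was the member with both cores at its start. The stretch upstream of its start and part of its upstream peak are shown with TGTGGT and GGAATG, or their reverse complements ACCACA and CATTCC, in capitals.
Ankrd1 start (chr19:36194442-36194641, minus strand): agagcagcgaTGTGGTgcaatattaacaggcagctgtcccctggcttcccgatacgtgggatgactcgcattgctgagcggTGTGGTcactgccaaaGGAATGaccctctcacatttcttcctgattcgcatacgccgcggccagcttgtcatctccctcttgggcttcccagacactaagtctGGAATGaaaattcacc
Ankrd1 upstream (chr19:36203825-36203899, minus strand): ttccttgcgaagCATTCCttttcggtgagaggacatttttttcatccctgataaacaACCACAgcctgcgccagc

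*Yap1* (ENSMUSG00000053110, chr9:7931999-8004596, minus strand) encodes the coactivator YAP. Its window held 1 peak at day 0, 2 at day 9 and 2 at day 28. The peak at the start was present at each time point, from chr9:8004451-8005001 at day 0 to chr9:8004007-8005075 at day 9 and chr9:8003907-8005189 at day 28. Its scores of 153.6, 1492 and 2153 correspond to percentiles 23.3, 86.8 and 91.8 within the lists. It thus stood in the lower part of the day 0 list and the upper part of the other 2 lists. The GGAATG shown for *Yap1* lay 6 bp from the centre of the day 0 peak, measured, as for all cores, to its lowest coordinate. The other *Yap1* peaks were a day 9 peak in an intron, 35.1 kb from the start, at percentile 29.0, and a day 28 peak at -12.8 kb, at percentile 4.67, the only one of the 5 with TGTGGT. Among all protein-coding genes, 33.0% to 41.3% had fewer peaks per 100 kb of window than *Yap1*, depending on the time point.

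*Wwtr1* (ENSMUSG00000027803, chr3:57259571-57379832, minus strand) encodes TAZ, the relative of YAP. Days 0, 9 and 28 had 4, 6 and 4 peaks here, which merged into 6 regions. The region over the start and the first exon, chr3:57378616-57380896, was bound at each time point, at percentiles 57.6, 86.3 and 82.2. It held up to 5 GGAATG and no TGTGGT. Only this 1 of the 6 regions was common to the 3 lists. A region in an intron, 1.58 kb downstream of the start, was found at days 0 and 9 (percentiles 24.4 and 49.1). It had TGTGGT within 1 bp of the centre of both peaks. The region 72.3 kb downstream of the start, in an intron, was found at days 9 and 28 (percentiles 46.5 and 15.2) and held 2 TGTGGT and 1 GGAATG in 124 bases shown here because the cores lie together.
Wwtr1 intron (chr3:57307559-57307682, minus strand): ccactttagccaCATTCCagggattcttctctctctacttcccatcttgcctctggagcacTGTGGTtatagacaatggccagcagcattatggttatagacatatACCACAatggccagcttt

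The remaining 3 *Wwtr1* regions, 74.0, 88.3 and 105.5 kb downstream, were at percentiles between 3.15 and 45.1. For the last 2 of these the nearest protein-coding start was that of *Tm4sf4*.

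**Figure D2:**
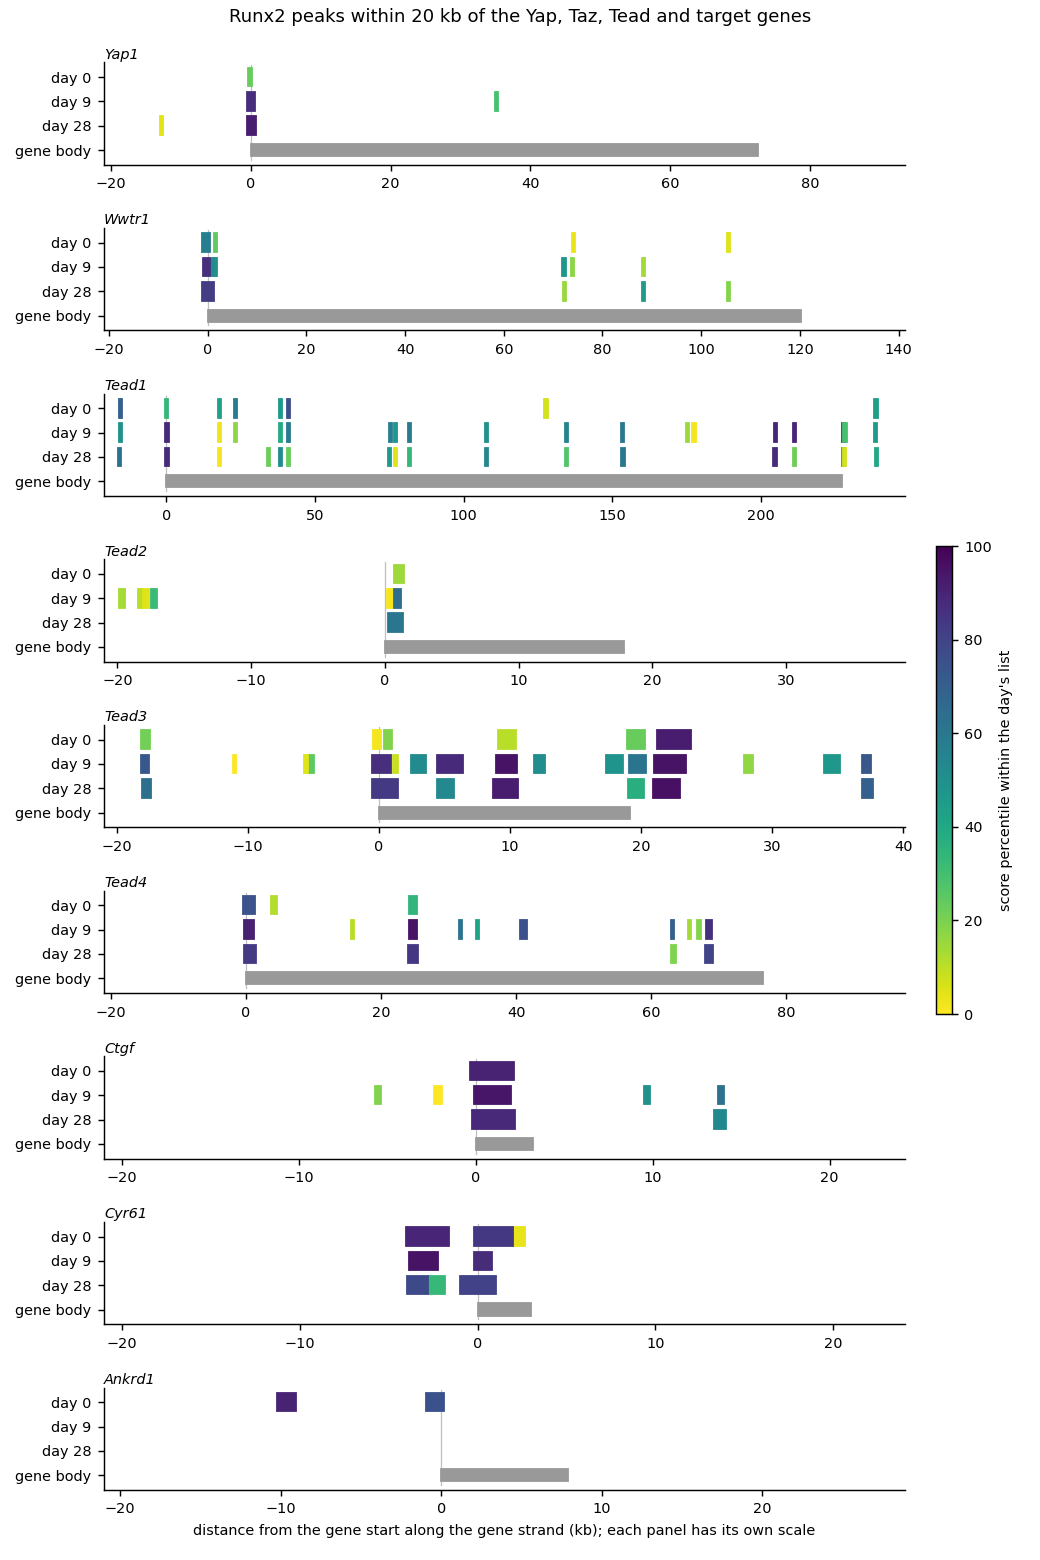
Runx2 peaks in the windows of the 9 genes. In each panel the horizontal axis is the distance from the gene start in kb, rows are the 3 time points and the gene body, and colour is the score percentile within the day's list from 0 (yellow) to 100 (dark); narrow peaks are drawn at a minimum width. The gene start is covered at each time point in 7 panels. In that of *Tead2* the peaks near it lie downstream, over other annotated starts, and in that of *Ankrd1* peaks appear at day 0 alone.

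*Tead1* (ENSMUSG00000055320, chr7:119822832-120050319, plus strand) is the longest of the 9 genes and had the most peaks, with 8, 19 and 17 at days 0, 9 and 28. Per 100 kb of its window this was 2.99, 7.10 and 6.36 peaks, more than in 69.4%, 72.5% and 80.3% of all protein-coding genes. Of its 21 regions, 6 were bound at each time point and 10 at days 9 and 28. No other gene had the same 3 counts. The nearest by Euclidean distance over the 3 counts were *Dst* (7, 19 and 16 peaks, distance 1.41), *Prkca* (8, 20 and 16, distance 1.41) and *St3gal3* (9, 20 and 18, distance 1.73).

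The *Tead1* start region, chr7:119822295-119823593, was at percentiles 33.5, 87.9 and 87.8 at days 0, 9 and 28. Its day 0 score was 189 and its day 9 score 1609. In the lists of days 0 and 9 the order of regions within the gene differed. At day 0 the highest-ranked *Tead1* peak lay 41.2 kb into the gene, at percentile 76.2, and this region was at 58.5 at day 9 and 22.7 at day 28. At day 9 the 2 highest lay in introns near the 3′ end, 211.4 kb (percentile 89.2) and 204.9 kb (percentile 89.1) downstream of the start, where no day 0 peak was called. At day 28 the first of these was at percentile 22.2 and the second at 87.9. The peak 211.4 kb downstream, chr7:120033946-120034449 at day 9, held 2 TGTGGT in opposite orientation to the gene, beginning 11 bp apart. A day 9 peak of *Tead4*, chr6:128216423-128216690, also held 2 TGTGGT beginning 11 bp apart. Both stretches are printed with TGTGGT, or ACCACA on the other strand, in capitals.
Tead1 intron (chr7:120034167-120034207, plus strand): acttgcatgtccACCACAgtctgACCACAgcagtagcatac
Tead4 intron (chr6:128216518-128216558, minus strand): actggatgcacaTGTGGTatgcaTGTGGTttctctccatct

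Around the 3′ end of *Tead1*, regions bound at days 9 and 28 lay 227.7 and 228.3 kb downstream of the start, at percentiles 85.3 and 29.3 at day 9. One *Tead1* region, 127.7 kb downstream, was bound at day 0 alone, at percentile 6.91, and 2 at day 9 alone, at percentiles 15.1 and 1.66. One was bound at day 28 alone, at percentile 22.4.

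*Tead2* (ENSMUSG00000030796, chr7:52471123-52489005, plus strand) had 1 peak at day 0, 6 at day 9 and 1 at day 28. The start region, chr7:52471323-52472580, lies downstream of the gene start, over other annotated starts and the first exons, and was bound at each time point, at percentiles 14.8, 64.5 and 60.7. These were the lowest ranks among the starts of the 4 *Tead* genes. At day 9 it was called as 2 peaks, and the weaker was at percentile 1.44. The day 0 peak held TGTGGT 48 bp from its centre. The other 4 day 9 peaks lay between -17.2 and -19.6 kb, over the neighbouring gene *Ccdc155*, at percentiles between 4.89 and 32.2. With a p-value of 1e-50 required, no peak was left in the *Tead2* window at any time point.

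*Tead3* (ENSMUSG00000002249, chr17:28468616-28487750, minus strand) had the highest density of peaks among the 9 genes. Its window of 59.1 kb held 6, 16 and 7 peaks at days 0, 9 and 28, or 10.1, 27.1 and 11.8 per 100 kb. Of all protein-coding genes, 97.3%, 99.2% and 95.2% had a lower density. The window also holds *Rpl10a*, *Fance* and *Tulp1*, and only 3 of the 6 day 0 peaks, 5 of the 16 day 9 peaks and 3 of the 7 day 28 peaks had a *Tead3* start as the nearest one. The highest-ranked region in the window at day 0, at percentile 92.5, lay over the start of the ribosomal protein gene *Rpl10a*.

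At the *Tead3* start, the region chr17:28486268-28488315 was at percentiles 18.9, 86.4 and 83.1 at days 0, 9 and 28. At day 0 it was called as 2 peaks, and the weaker, which covered the gene start, was at percentile 1.69. The day 9 peak over the start held 4 GGAATG and no TGTGGT. Inside *Tead3*, the intronic region chr17:28477155-28479057, 9.64 kb from the start, was at percentile 10.6 at day 0 with a score of 121, reached the tied score of 3100 at day 9 (percentile 95.2), and was at 92.3 at day 28. By the highest-scoring peak of each region, this was a wider spread of rank across the 3 lists than at the *Tead3* start. A second intronic region, 5.42 kb from the start, had no day 0 peak and was at percentiles 88.2 and 53.0 at days 9 and 28. The window also held 8 regions bound at day 9 alone, at percentiles from 0.248 to 52.2. The highest of these, 3.01 kb into *Tead3*, held 5 TGTGGT, the nearest 34 bp from the centre.

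*Tead4* (ENSMUSG00000030353, chr6:128174306-128250841, minus strand) had 3, 10 and 4 peaks at days 0, 9 and 28. Its start region, chr6:128249278-128251321, was at percentiles 74.7, 90.9 and 83.5, the highest day 0 rank among the *Tead* starts. A second region bound at each time point, chr6:128225387-128226806, lay 24.7 kb into the gene with its centre at -502 bp from an alternative start. It was at percentile 34.6 at day 0, 95.1 at day 9 with a score of 3028, and 84.0 at day 28. These were the 2 *Tead4* regions common to the 3 lists. Another 6 regions were bound at day 9 alone, at percentiles from 10.6 to 75.6, and a region near the 3′ end, 68.5 kb from the start, at days 9 and 28 (percentiles 86.1 and 80.0). The day 9 peak of that region had TGTGGT 13 bp from the centre. For this and 3 more day 9 peaks in the 3′ part of *Tead4*, the nearest protein-coding start was that of *Gm10010*. A weak peak 4.18 kb into the gene, at percentile 11.5, was called at day 0 alone.

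*Ctgf* (ENSMUSG00000019997, chr10:24315248-24318489, plus strand) encodes a secreted matricellular CCN protein. It had 1 peak at day 0, 5 at day 9 and 2 at day 28, with no other protein-coding gene in the window. One wide peak covered the start and most of the gene at each time point, 2456 bp at day 0 (chr10:24314936-24317391), 2110 bp at day 9 and 2457 bp at day 28. It was at percentiles 90.5, 94.5 and 89.0, the highest day 0 rank at a start among the 9 genes. The day 9 score was 2828. In width it exceeded 98.0%, 99.2% and 99.1% of the peaks of the respective lists. The 115 bases printed for *Ctgf* lay at the 5′ edge of this region, and its peaks held 1 TGTGGT each, 348 to 439 bp from the centre.

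Upstream of *Ctgf*, weaker peaks were called at day 9 alone, at -5.52 kb (percentile 18.8) and -2.14 kb (percentile 0.185). Downstream, a day 9 peak lay at 9.68 kb (percentile 50.0), and a region at 13.8 kb, chr10:24328717-24329412, was bound at days 9 and 28 (percentiles 63.1 and 53.2). The downstream region is the strongest *Ctgf* region outside the gene with TGTGGT less than 50 bp from the centre in both lists. The stretch with 2 cores, 1 on each strand, is shown.
Ctgf downstream (chr10:24329024-24329093, plus strand): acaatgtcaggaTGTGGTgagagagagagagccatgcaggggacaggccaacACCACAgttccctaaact

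*Cyr61* (ENSMUSG00000028195, chr3:145309935-145312949, minus strand) encodes another secreted CCN protein. Its window held 3, 2 and 3 peaks at days 0, 9 and 28, so that, with *Ankrd1*, it was 1 of the 2 members with fewer peaks at day 9 than at day 0. The region over the start and the gene, chr3:145310977-145313920, was at percentiles 83.8, 87.5 and 80.2. The region upstream of it, chr3:145314577-145316949, centred at -2.81 kb, was at percentile 89.8 at day 0 and had the tied score of 3100 at day 9 (percentile 95.2). At day 28 it was called as 2 peaks, at percentiles 77.9 and 33.2. Both regions thus lay above percentile 80 in the day 0 and day 9 lists. A day 0 peak near the 3′ end of the gene, 2.35 kb from the start, was at percentile 3.57 and was not called later. Inside the gene, across the boundary of an exon and an intron and within the start region of each time point, 2 TGTGGT flank a GGAATG in 106 bases.
Cyr61 gene (chr3:145312158-145312263, minus strand): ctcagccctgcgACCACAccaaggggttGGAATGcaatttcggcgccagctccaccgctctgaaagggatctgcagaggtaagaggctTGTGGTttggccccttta

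*Ankrd1* (ENSMUSG00000024803, chr19:36186455-36194334, minus strand) had 2 peaks at day 0 and none at days 9 and 28. A day 0 peak in the window with none at either later time point was found for 173 of 22367 protein-coding genes (0.773%). The peak at the promoter, chr19:36194173-36195301, had a score of 534 and percentile 75.3, with its centre at -403 bp. The other peak, chr19:36203376-36204570, centred at -9.64 kb, had a score of 973 and percentile 90.3. Each held 3 TGTGGT, none of them within 50 bp of the centre.

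These *Ankrd1* peaks ranked high among peaks of their kind. Of the 3792 day 0 peaks in regions bound at day 0 alone, 16 had a higher percentile than the upstream peak and 123 a higher one than the promoter peak. Of the 99 genes with a peak over a start at day 0 alone, 4 had a higher percentile than *Ankrd1*, and the median was 26.3. The 2 *Ankrd1* peaks were kept with p-values of 1e-20 or 1e-50 required. These settings, and lists of equal length, only take peaks away, so they could not have added one at days 9 and 28. In a window of 50 kb on each side, 4 peaks were called at day 0, 2 at day 9 and 1 at day 28. The lists give presence above a threshold, so weaker binding at days 9 and 28, with a p-value above 1e-10, was not assessed. The study lists the most raw reads for day 0, and the part of read depth in the *Ankrd1* pattern was not tested.

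In all, 9, 8 and 8 of the 9 genes had at least 1 peak in the window at days 0, 9 and 28, against 65%, 77% and 71.2% of all protein-coding genes. Day 9 had the most peaks, 66, and day 0 the fewest, 29. With each list limited to its 25457 highest scores, as many as day 0 has in all, the 9 windows held 29, 27 and 26 peaks at days 0, 9 and 28, and day 9 no longer had the most. Counting only peaks whose nearest protein-coding start was that of the member, a choice made after seeing the data, left 25, 46 and 32. The windows of *Tead3* (27.1 peaks per 100 kb), *Ctgf* (11.6) and *Tead2* (10.4) were the densest at day 9, when the median gene had 3.49. At day 0 those of *Tead3* (10.1) and *Cyr61* (6.97) were, against a median of 1.69.

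**Figure D3:**
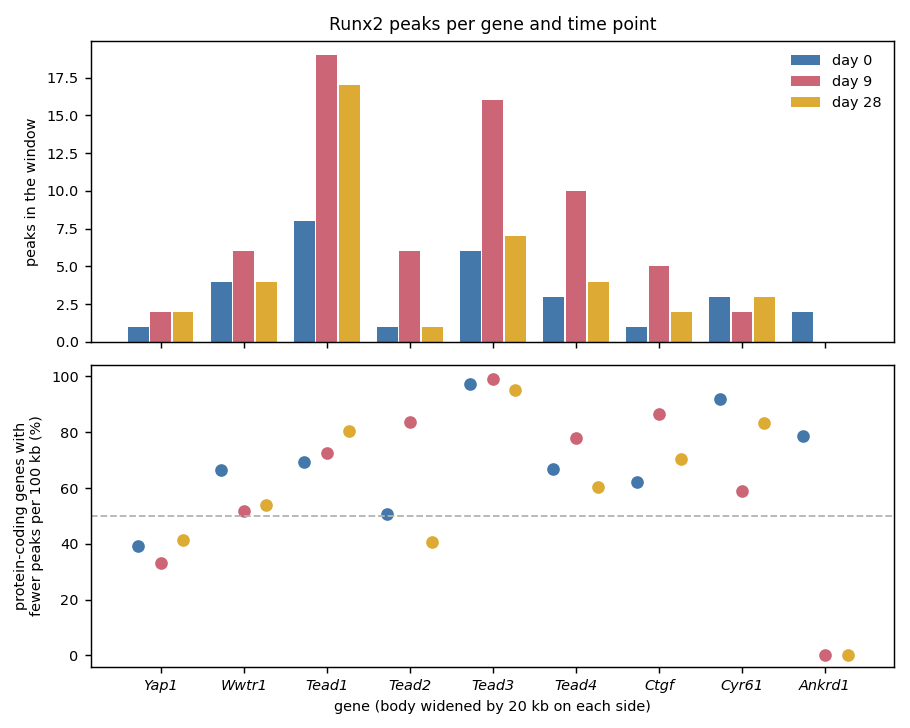
Peaks per gene and time point. The upper panel gives the number of peaks in the window of each gene, and the lower the percent of all protein-coding genes with fewer peaks per 100 kb of window, with a dashed line at 50. *Tead1* has the most peaks (8, 19 and 17), *Tead3* lies above 95% of genes at each time point, and *Ankrd1* has peaks at day 0 alone.

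The ranks of the start peaks differed between the coactivator and *Tead* genes and the targets mainly at day 0. At day 0 the highest-scoring peak over a start was at percentile 23.3 for *Yap1*, 57.6 for *Wwtr1*, 33.5 for *Tead1*, 14.8 for *Tead2*, 18.9 for *Tead3* and 74.7 for *Tead4*. It was at 90.5 for *Ctgf*, 83.8 for *Cyr61* and 75.3 for *Ankrd1*, so the 3 targets stood above the other 6 genes, *Ankrd1* only just above *Tead4*. At day 9 the 8 genes with a start peak lay between 64.5 (*Tead2*) and 95.1 (*Tead4*), and at day 28 between 60.7 (*Tead2*) and 91.8 (*Yap1*), with the targets among the others. The *Tead4* value is that of its start region at day 0 and of the alternative start 24.7 kb into the gene at days 9 and 28. The start region itself was then at 90.9 and 83.5. Over the 9272 protein-coding genes with a start peak at each time point, the median percentile was 62.6, 85.8 and 82.7, and day 0 was the lowest of the 3 ranks in 84.7% of them. Among the 8 members it was the lowest in 6, with *Ctgf* and *Cyr61* as the exceptions. A rank says where a peak stood among its own list and is no measure of how binding at a site changed.

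**Figure D4:**
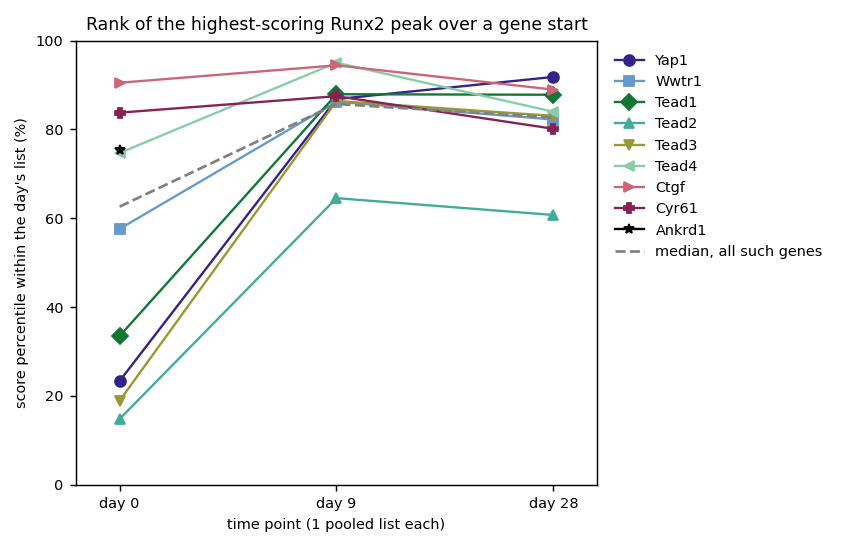
Score percentile of the highest-scoring peak over a start of each gene. The horizontal axis is the time point, the vertical axis the percent of the day's peaks with a lower score, and the dashed line the median of the 9272 protein-coding genes with a start peak at each time point. At day 0 the genes spread from 14.8 (*Tead2*) to 90.5 (*Ctgf*), and 7 of the 8 present at day 9 lie above 86. The *Tead4* line joins different starts, as its highest peak lies over the start region at day 0 and over an alternative start later.

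Of the 71 merged regions, 19 were bound at each time point, 26.8% (16.9% to 38.6%) against 27.4% of all merged regions. Regions of days 9 and 28 numbered 17, or 23.9% (14.6% to 35.5%) against 21.1%, and those of day 9 alone 24, or 33.8% (23.0% to 46.0%) against 34.5%. With a p-value of 1e-20 required the shares lay further apart. Regions of all 3 time points were then 17.02% (7.65% to 30.8%) of the members' regions against 30.5% of all regions, and those of days 9 and 28 38.3% (24.5% to 53.6%) against 26.0%. At 1e-50 the shares of these patterns were 20.8% against 23.5% and 41.7% against 38.3%. With equal list lengths they were 30.2% against 37.7% and 16.3% against 13.7%. The intervals held the share of all regions in each of these comparisons. The other patterns had few regions. There were 5 of day 0 alone (7.04% against 5.6%), 3 of days 0 and 9 (4.23% against 1.69%), 2 of day 28 alone (2.82% against 7.59%) and 1 of days 0 and 28 (1.41% against 2.06%), and the 95% intervals held the share of all regions for each of them. The 5 regions of day 0 alone lay at *Ankrd1* (2), *Tead1*, *Tead4* and *Cyr61*, and the *Ankrd1* regions were the only ones above percentile 12.

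**Figure D5:**
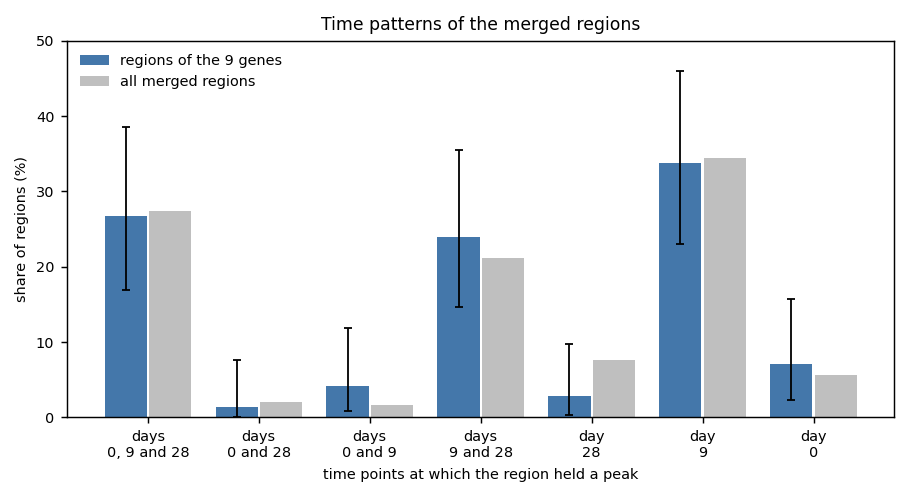
Share of merged regions by the time points at which they held a peak. Blue bars are the 71 regions of the 9 genes with exact binomial 95% intervals, and grey bars all 67703 merged regions, in percent. The intervals of all 7 patterns hold the share of all regions.

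The centres of the members' peaks fell in introns for 11 of 29 peaks at day 0 (37.9%, 20.7% to 57.7%), 40 of 66 at day 9 (60.6%, 47.8% to 72.4%) and 22 of 40 at day 28 (55.0%, 38.5% to 70.7%). Over all peaks the shares were 36.3%, 42.9% and 40.6%. Windows around genes leave out most intergenic sequence, and 3.45%, 4.55% and 5.00% of the members' peaks were intergenic against 24.0%, 25.4% and 24.8% of all peaks. The part of this in the share of introns was not tested. At day 9, 13 of the 40 intronic peaks lay in the window of *Tead1*. Exons held 7, 14 and 8 peaks at days 0, 9 and 28 (24.1%, 21.2% and 20%, against 18.1%, 15.8% and 17.3% of all peaks). Promoter sequence outside exons and introns held 5 peaks at day 0, 1 at day 9 and 0 of 40 at day 28 (17.2%, 1.52% and 0%, the last with an upper bound of 8.81%, against 10.9%, 4.52% and 6.36%). These values depend on exons and introns being assigned first. With promoters first the members' shares were 27.6%, 15.2% and 20%. The shares of all peaks above are not those of this order, so the 2 cannot be compared. Counted by overlap in place of the centre, 11, 10 and 9 peaks lay over a start of a member at days 0, 9 and 28. These counts were not set against all peaks.

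Within 50 bp of the peak centre, TGTGGT was present in 5 of 29 member peaks at day 0 (17.2%, 5.85% to 35.8%), 12 of 66 at day 9 (18.2%, 9.76% to 29.6%) and 6 of 40 at day 28 (15%, 5.71% to 29.8%). Over all peaks of the lists it was present in 16%, 25.4% and 20.9%. Only cores lying wholly in this window were counted, and in 2 further peaks, of *Wwtr1* at day 0 and *Tead4* at day 28, a core beginning 46 and 48 bp from the centre ran past its edge. In flanks 450 to 550 bp away the members had 1.72%, 9.85% and 8.75% and all peaks 6.66%, 7.33% and 6.99%. The 95% intervals of the members held the shares of all peaks, so no difference was detectable at this number of peaks. The day 9 peaks with TGTGGT at the centre were spread over *Wwtr1*, *Tead1*, *Tead3*, *Tead4* and *Ctgf*, and none was at a gene start.

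GGAATG lay within 50 bp of the centre of 6 of 29 member peaks at day 0 (20.7%, 7.99% to 39.7%), against 7.85% of all day 0 peaks, just below the lower bound. Of these 6 peaks, 5 lay over a start, at *Yap1*, *Wwtr1*, *Tead1*, *Tead3* and *Cyr61*. The *Cyr61* peak was 2179 bp wide and centred 883 bp downstream of the start, so its central GGAATG was not the one printed upstream of the start. The *Tead3* peak was the weaker of 2 over its start, at percentile 1.69. At day 9 it was 4 of 66 (6.06%, 1.68% to 14.8%) against 5.62%, and at day 28 it was 3 of 40 (7.50%, 1.57% to 20.4%) against 6.97%. Within 100 bp of the centre the day 0 share was 27.6% (12.7% to 47.2%), and these bounds held the 14.5% of all day 0 peaks. Anywhere in the peak, GGAATG was found in 65.5%, 36.4% and 55.0% of the member peaks. Among all peaks it was in 47.2%, 29.2% and 40.6%, and peaks differ in width between lists (medians of 917, 554 and 763 bp). The day 0 bounds for the whole peak, 45.7% to 82.1%, also held the share of all peaks. The day 0 excess thus lay outside the bounds only within 50 bp. No correction was made for the number of motifs, days and windows compared, or for peaks that lie at the same gene. The AP-1 site TGANTCA lay within 50 bp of the centre of 1, 1 and 2 member peaks at days 0, 9 and 28 (3.45%, 1.52% and 5.00%), against 6.05%, 3.7% and 4.63% of all peaks.

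The rest of the pathway was taken as a list of 49 genes, all of which matched a protein-coding gene of GENCODE M1. At least 1 peak was found in the window of 46 genes at day 0, 48 at day 9 and 46 at day 28, against 65%, 77% and 71.2% of all protein-coding genes. A start was covered in 33, 40 and 42, against 42.7%, 51.6% and 50.1%. As shares of the 49 genes these were 93.9%, 98.0% and 93.9% for the windows and 67.3%, 81.6% and 85.7% for the starts. The median was 3, 6 and 5 peaks per window, against 1, 2 and 2 over all protein-coding genes, and 3.43, 6.93 and 5.08 peaks per 100 kb against 1.69, 3.49 and 2.33. None of the 49 genes had peaks at day 0 alone, and 1, the Hippo scaffold gene *Sav1* (2, 1 and 1 peaks at days 0, 9 and 28), had more at day 0 than at both later time points.

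Among the 15 kinases and scaffolds, all had a peak at each time point, and *Wwc2* had the most at day 9 (4, 16 and 8 peaks at days 0, 9 and 28) and *Sav1* the fewest. Of the 9 junction and membrane regulators, *Ptpn14*, a phosphatase that binds YAP, had the most (5, 29 and 17), and *Amot* (4, 3 and 4) and *Wtip* (1, 3 and 1) the fewest. Of the 4 TEAD cofactor genes, *Vgll4*, which encodes a competitor of YAP for TEAD binding, had 11, 27 and 17 peaks, *Vgll1* had none and *Vgll2* had 1 at day 9 alone. The CCN relatives of *Ctgf* and *Cyr61* were densely covered at *Wisp1* (7, 10 and 8 peaks) and *Wisp2* (9, 10 and 11), which lay above 97.0% and 99.7% of genes in density at day 0, while *Nov* had 1, 2 and 1. Of the 17 further YAP and TAZ targets, *Rbms3* had the most day 9 peaks (4, 26 and 12, in a window of 1097 kb) and *Igfbp3* the fewest (0, 1 and 0).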

How the data were processed

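Runx2 ChIP-Seq peaks were analysed for the 9 genes named above in 3 lists, of day 0, day 9 and day 28. Per the submitters' processing notes and methods, bases were called with CASAVA (version 1.6), reads were placed on mm9 by Bowtie (version 0.12.8), the 2 replicates of a time point were pooled, and MACS (version 1.4.1) called peaks against pooled input DNA at a p-value of 1e-10. As deposited, the score of a peak equals -10 times the log10 of its MACS p-value, computed by the authors. A pooled list has no replicate error, and the lists hold no read counts, so the precision per peak is unknown here. The study lists raw reads per time point, with the most for day 0, and these totals were not used here. Signal tracks and input libraries were not analysed here.

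The members and the pathway list were chosen with earlier results of these data known. All 9 members and, of the pathway list, the genes with the most and the fewest day 9 peaks in each group were named, with neighbours where theirs was the nearest start. Peaks were assigned to genes of GENCODE M1 (22367 protein-coding genes) by at least 1 bp, merged over lists by at least 1 bp, and located by their centre in exons first, then introns, promoters, TTS regions, upstream sequence and the remainder, on 51710 protein-coding transcripts. Sequences and motifs were read from the NCBIM37 genome on both strands. Alternatives covered the p-value, equal list lengths, the window, the overlap, the motif and the location order. The counting of peaks by nearest start and the spacing of GGAATG copies were added after seeing the data. Merging, motif search, window counts and intervals were tested on simulated data. Scripts ran on Python 3.11.15 with SciPy 1.17.1, NumPy 2.4.6 and, for plots, Matplotlib 3.10.9.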

Additional observations from a re-analysis of the deposited data

How the results depend on the processing

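No test was made between time points, and no result could be recomputed without a replicate, because each list was called from pooled reads. No paired analysis was possible because the 2 replicates of each time point were pooled before peak calling. The numbers of genes with a peak in the window stayed within 1.5 times under the 6 alternatives run for them (6 to 9 genes at day 0, 7 to 9 at days 9 and 28).

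With a p-value of 1e-20 required, the member windows held 14 peaks at day 0 and 42 at day 9, in 47 regions, 8 of them of all 3 time points, 1 of days 0 and 9, 1 of day 28 alone and 14 of day 9 alone. At 1e-50 there were 8, 20 and 16 peaks at days 0, 9 and 28 in 24 regions, 5 of all 3 time points, 0 of days 0 and 28, 0 of days 0 and 9, 10 of days 9 and 28, 1 of day 28, 5 of day 9 and 3 of day 0. With equal list lengths there were 27 peaks at day 9 and 26 at day 28 in 43 regions, 3 of days 0 and 28, 7 of days 9 and 28, 5 of day 9 and 10 of day 0. With equal list lengths day 9 thus no longer had the most peaks. Regions of day 9 alone were then 11.6% of the members' regions against 11.9% of all regions. In the lists as deposited they were 33.8% against 34.5%. Regions of day 0 alone were 23.3% against 20.1% with equal list lengths, and 12.5% against 4.46% at 1e-50. Those of day 9 alone were 29.8% against 27.4% at 1e-20 and 20.8% against 24.3% at 1e-50. In a window of 50 kb there were 63 peaks at day 28. With peaks joined only where centres lay within 250 bp, there were 2 regions of days 0 and 28, 5 of days 0 and 9, 9 of day 28 and 8 of day 0. TGTGGT lay within 100 bp of the centre of 34.8% of the members' day 9 peaks, against 37.4% of all day 9 peaks. It lay anywhere in 58.6%, 57.6% and 57.5% of the members' peaks of days 0, 9 and 28. Over all peaks of these lists it did so in 61.4%, 58.7% and 61.6%. With promoters assigned before exons and introns, promoters held 15.2% of the members' day 9 peaks and 20% of their day 28 peaks. No share of all peaks is given for this order. Of 216 single-gene counts under an alternative, 147 stayed within 1.5 times. The number of peaks limits every share given for the 9 genes, and the absence of a peak is absence above the threshold alone.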
